A study of Mus musculus with 4 samples.

Results

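Xenobiotic metabolism enzymes were examined in lung RNA of E18.5 mouse embryos that were labelled either Myf5-/-:MyoD-/- on BALB/c, the double knockout of both myogenic regulators, or wild type BALB/c. The members were all probe sets that the platform annotation pairs with 1 gene whose symbol starts with Cyp1, Cyp2, Cyp3, Cyp4, Gsta, Gstm, Gstp, Gstt, Gsto, Ugt1, Ugt2, Sult, Fmo followed by a digit, or Ephx, apart from Cyp2f2. They were 151 probe sets for 115 genes, of 18193 genes on the arrays. Of these genes, 97 were on the Affymetrix design MOE430A, 26 on its companion MOE430B, and 8 on both. The prefixes Cyp1 to Cyp4 also take P450 families with a longer number, such as Cyp11, Cyp26 and Cyp27, whose known substrates are mostly steroids, retinoids and vitamin D. These are kept apart below as the other P450 families.

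There was 1 array per genotype on each design, 4 in all, so no test between genotypes was possible, no p-value is given, and the number of arrays limits the precision of every value. The labels give fetal lung as the tissue and do not say whether RNA was pooled over embryos or shared between the 2 designs, or name any treatment. Embryos without both regulators form no skeletal muscle anywhere, so the absence is not particular to the lung. In bulk RNA, fewer cells of a type and less RNA per cell cannot be told apart. In place of a replicate error, 100 probe sets carried by both designs, none of them a member, gave an SD of 0.24 for 1 log2 ratio. Their mean log2 ratio on MOE430B minus that on MOE430A was -0.22, a shift that this SD leaves out. A gap of that size between the designs is therefore not read as a trait of the enzymes. The SD of 0.24 need not include differences between embryos, since the designs may share RNA, and no member entered it. Different probe sets of 1 gene spread with an SD of 0.37 on MOE430A and 0.71 on MOE430B. Signals are on separate scales on the 2 designs and are comparable only within 1 probe set.

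Enzymes of this kind clear foreign compounds in steps. Cytochromes P450, flavin monooxygenases and epoxide hydrolases oxidise or open the compound, and glutathione transferases, sulfotransferases and glucuronosyltransferases then attach a water-soluble group to it. The liver carries the widest set, while the lung is known for a smaller set in club cells, alveolar type II cells and endothelium. The receptor Ahr and its partner Arnt induce Cyp1 genes, and the factor Nfe2l2 (NRF2), held back by Keap1, induces many glutathione transferases.

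Before the enzymes, the labels and the tissue were checked. Myf5 read 8.94 in the labelled double knockout array and 111 in the labelled wild type array, both signals below the floor of 283.8 under which a signal is not read as a level. Myod1 goes against its labels, at 1081 in the labelled double knockout and 85.0 in the labelled wild type array on MOE430A, and the sources used here do not say where its probes lie relative to the deletion. Of 7 skeletal muscle genes 3 were measured on MOE430A. Mylpf, a myosin light chain of fast muscle, was at least 3.23-fold lower (221 and 917), Acta1, skeletal actin, had a log2 ratio of -0.73 (3809 and 6305), and Ckm, a creatine kinase of skeletal and heart muscle, had 0.27. Arrays are called by their labels throughout, and every direction rests on them. Xist read 2749 in the labelled double knockout and 7600 in the labelled wild type array, and the Y-linked gene Kdm5d 737 and 287 in the same order, so sex and genotype cannot be told apart. The lung markers Sftpc, Sftpb, Scgb1a1, Nkx2-1 and Ager were all measured on MOE430A, as the label of lung requires. All 8 heart muscle genes were measured too, with a median log2 ratio of 0.17. Of these, 5 had a ratio above 1, against 51.3% of all genes measured there, and 3 below it. Among them Myl2 had 0.47, Nppa -0.70 and Ryr2 -0.95, and the summed signal was 282581 in the labelled double knockout and 252759 in the labelled wild type array. Such sums compare the same probe sets on 2 arrays and rest mostly on the brightest. The 18S rRNA controls gave median signals 3.91-fold higher (MOE430A) and 3.13-fold higher (MOE430B) in the labelled double knockout arrays.

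Most of the enzyme genes gave weak signals. A gene was counted as measured when, on 1 of its probe sets, the higher of the 2 signals reached the median signal of the design, 787.4 on MOE430A and 855.1 on MOE430B. By this filter 43 of the 115 genes were measured on at least 1 design and 72 on neither. On MOE430A 28 of 97 genes were measured and 69 were not, and for 35 genes every probe set was below the floor on both arrays. Without any filter, each gene read by its brightest probe set, 36.1% of the member genes on MOE430A were below the floor on both arrays, against 15.0% of all genes there. The measured share on MOE430A was 28.9% of the members, against 61.8% of all genes, and on MOE430B 61.5%, against 70.0%. All 5 Cyp3a genes on MOE430A were below the filter, as were 25 of 30 genes of P450 family 2, all 6 Ugt2 genes and 9 of 11 Sult genes. Cyp3a11, the main drug-metabolising Cyp3a enzyme of mouse liver, read 514 in the labelled double knockout and 582 in the labelled wild type array. Cyp1a1, the P450 best known for induction by Ahr, read 328 and 182, the second value below the floor. Neither of these reached the filter, and no fold is read from them.

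**Figure D1:**
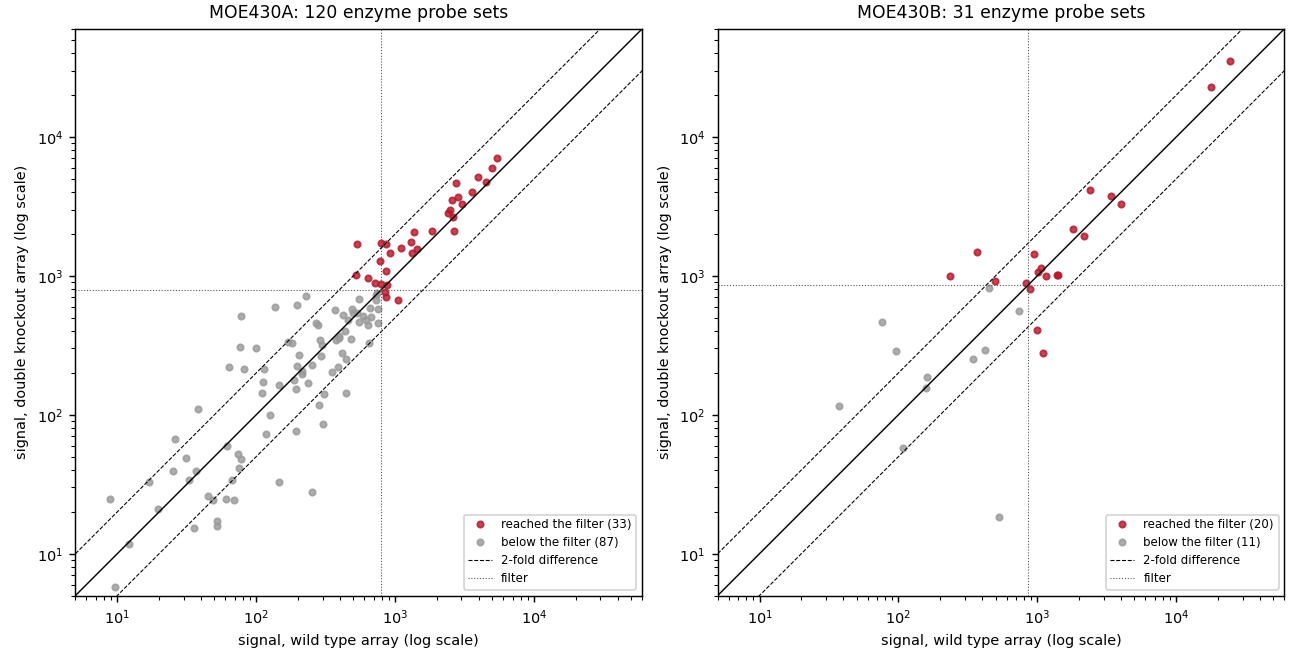
Signal of each enzyme probe set in the array labelled double knockout (vertical) and in the array labelled wild type (horizontal), both on log scales, for MOE430A and MOE430B. Points are probe sets, coloured by whether the higher signal reached the filter (33 of 120 and 20 of 31 did), and most points that reached it on MOE430A lie above the line of equal signal and inside the 2-fold lines.

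Among the measured genes on MOE430A the labelled double knockout array read slightly higher for most. Of 28 genes, 23 had a ratio above 1, against 51.3% of all 7658 genes measured on that design, and the median log2 ratio was 0.27, against 0.01 for all genes. Only 2 genes were at least 2-fold higher, Gstt2 and Ephx2, where 1.76% of all genes were, and none was at least 2-fold lower, where 1.78% of all genes were. At 1.5-fold, 6 genes were higher and 1, Cyp1b1, was lower, against 6.23% and 6.32% of all genes. The log2 ratio exceeded the SD of 0.37 between probe sets of 1 gene in 12 of the 28 genes, 11 of them higher, and 28.6% of all genes exceeded it in either direction. The filter lets a gene in through its higher array, and 6 of the 28 genes passed it on 1 array alone. With the filter set on the mean of both signals, an alternative chosen after the data were seen, 22 of 26 genes had a ratio above 1, against 51.1% of all genes. With no filter, and genes below the floor on both arrays set aside, 38 genes were higher and 24 lower, which is 61.3% higher against 52.9% of all genes, so the excess was smaller when dim genes were let in.

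**Figure D2:**
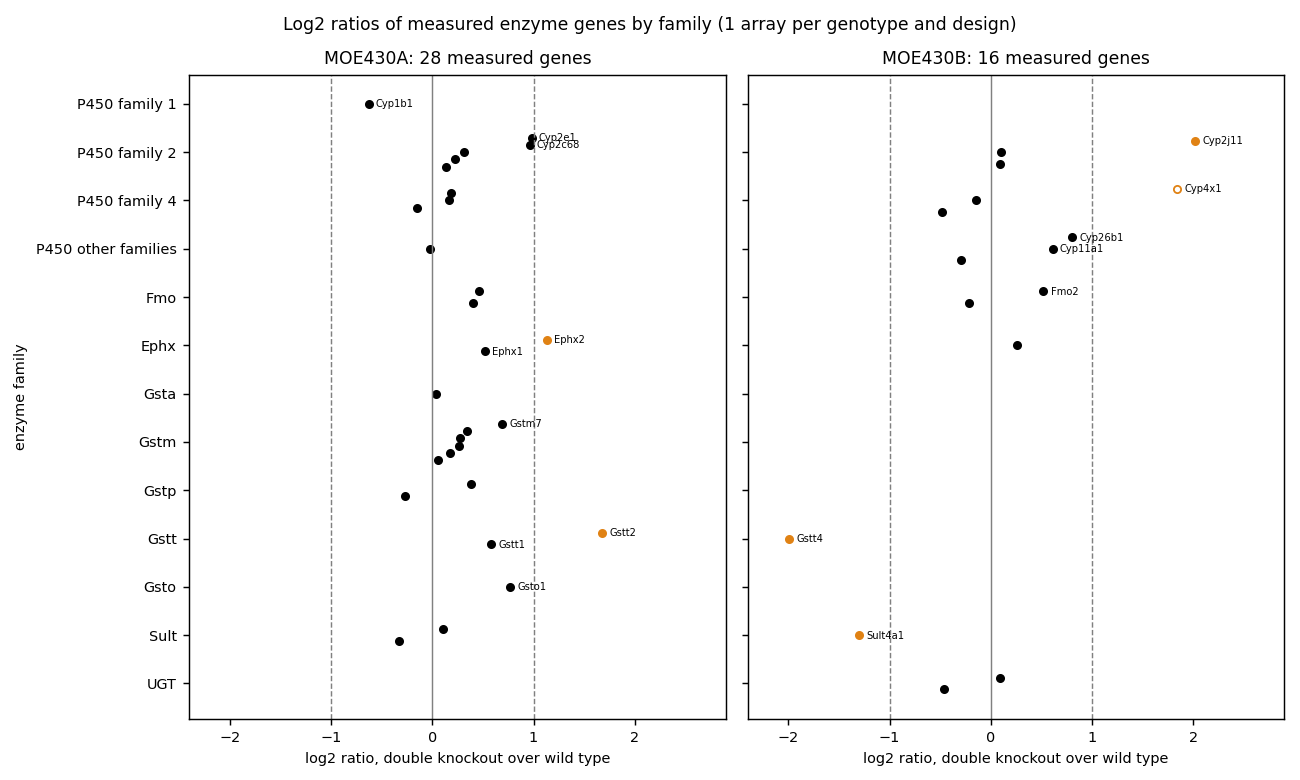
Log2 ratio of double knockout over wild type for each measured enzyme gene, by family, on MOE430A (left) and MOE430B (right). Each point is 1 gene, dashed lines mark 2-fold, orange points lie past it, the open point (Cyp4x1) is a lower bound, and names are given where the log2 ratio is at least 0.5 in size. On MOE430A 23 of 28 points lie right of 0, and on MOE430B 9 of 16 do.

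The glutathione transferases were the enzyme group with the most measured genes on MOE430A. These enzymes join glutathione to reactive compounds and are named by class, alpha (Gsta), mu (Gstm), pi (Gstp), theta (Gstt) and omega (Gsto). Of 16 genes on the design, 12 were measured, 11 of them with a ratio above 1, and the median log2 ratio was 0.31. By probe set, 15 of 16 that reached the filter read higher in the labelled double knockout array, against 49.6% of all passing probe sets of 1 gene there. Of these 16, 3 passed through the labelled double knockout array alone and 1 through the labelled wild type array alone, which fixed their direction. The other 12 belong to 10 genes and passed on both arrays. All 12 read higher in the labelled double knockout array, against 50.1% of all such probe sets. Outside the glutathione transferases 12 of 16 measured genes on MOE430A had a ratio above 1, against 51.3% of all genes, with a median of 0.20. Of those 16 genes 4 passed the filter on 1 array alone, and the P450s among them gave 7 higher and 3 lower.

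The mu class was the fullest, with 6 of 7 genes measured, all with a ratio above 1, against 51.3% of all genes. Their log2 ratios ranged from 0.06 to 0.69, with a median of 0.27. Gstm2 read 5946 in the labelled double knockout and 4966 in the labelled wild type array, a log2 ratio of 0.26. Gstm5 read 4028 and 3583 in the same order, a log2 ratio of 0.17. Gstm1, the mu enzyme most abundant in mouse liver, read 4716 and 4514 by its brightest probe set, which differed by less than the SD of 1 ratio. The other 3 probe sets of Gstm1 gave larger log2 ratios, 0.37, 0.60 and 0.70, so the size for this gene depends on the probe set. Gstm3 and Gstm4 had 0.27 and 0.34, and Gstm7 had the highest value of the class, 0.69. Gstm6 was below the floor on both arrays. The mu genes are close copies of each other in sequence, and the brightest probe set of Gstm1 and that of Gstm3 carry the suffixes _x_at and _s_at, which Affymetrix gives to probe sets that may bind several genes, so signals may be shared between members of the class.

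Because the mu genes had ratios in 1 direction, the 250 bases before the start of 4 of them are shown. The same window of Cyp1b1, a measured P450 that Ahr induces, is shown for comparison. Sequences and coordinates are from RefSeq on build GRCm38.p6, read 5′ to 3′ on the strand of the gene, and the window farthest upstream was taken where RefSeq gives several. Capitals mark matches on either strand to TGACNNNGC, the core of the antioxidant response element to which Nfe2l2 binds, and to GCGTG, the core of the element to which Ahr and Arnt bind.
Gstm1, chr3:108017974-108018223, minus strand: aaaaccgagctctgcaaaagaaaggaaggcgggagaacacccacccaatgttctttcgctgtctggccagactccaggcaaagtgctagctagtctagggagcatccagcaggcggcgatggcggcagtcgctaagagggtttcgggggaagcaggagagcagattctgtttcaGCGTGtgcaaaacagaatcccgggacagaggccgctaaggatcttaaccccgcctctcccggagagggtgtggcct
Gstm2, chr3:107986421-107986670, minus strand: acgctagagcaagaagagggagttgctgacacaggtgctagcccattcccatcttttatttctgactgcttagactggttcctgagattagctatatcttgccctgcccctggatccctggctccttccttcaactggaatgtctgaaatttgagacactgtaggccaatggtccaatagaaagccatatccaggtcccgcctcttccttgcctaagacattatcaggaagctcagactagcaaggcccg
Gstm5, chr3:107895604-107895853, plus strand: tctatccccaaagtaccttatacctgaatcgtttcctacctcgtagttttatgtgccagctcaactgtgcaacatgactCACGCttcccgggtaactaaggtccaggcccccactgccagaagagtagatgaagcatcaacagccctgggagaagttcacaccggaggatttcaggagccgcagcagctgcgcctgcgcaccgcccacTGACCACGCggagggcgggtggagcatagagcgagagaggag
Gstm7, chr3:107931818-107932067, minus strand: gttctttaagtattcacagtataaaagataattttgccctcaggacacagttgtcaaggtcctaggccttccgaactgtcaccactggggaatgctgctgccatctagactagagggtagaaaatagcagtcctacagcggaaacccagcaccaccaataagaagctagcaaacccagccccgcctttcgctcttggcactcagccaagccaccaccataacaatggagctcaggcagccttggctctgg
Cyp1b1, chr17:79715062-79715311, minus strand: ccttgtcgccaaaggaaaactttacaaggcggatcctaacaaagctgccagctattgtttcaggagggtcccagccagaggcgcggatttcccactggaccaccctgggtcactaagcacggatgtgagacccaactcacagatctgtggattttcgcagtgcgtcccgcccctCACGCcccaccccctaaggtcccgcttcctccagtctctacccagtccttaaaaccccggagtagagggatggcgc
Gstm5 held 1 match to TGACNNNGC, which overlaps 1 of its 2 matches to GCGTG. Gstm1 and Cyp1b1 held 1 match each to GCGTG, and the windows of Gstm2 and Gstm7 held neither. Over all 27025 genes with such a window, 10.1% held TGACNNNGC and 28.3% held GCGTG. Of the 90 member genes with a window 3 (3.3%) held the first and 19 (21.1%) the second. Of the 32 measured members among them 1 (3.1%) held the first and 10 (31.2%) the second. The matches describe these letters only.

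The other classes held fewer genes. Gstp1, the pi class enzyme of lung and other epithelia, read 7043 in the labelled double knockout array and 5402 in the labelled wild type array, a log2 ratio of 0.38. Gstp3, its neighbour, had -0.27 (708 and 857), the only measured glutathione transferase gene on MOE430A with a ratio below 1. Gsto1, the omega enzyme, which reduces dehydroascorbate and arsenic compounds, read 4651 and 2724, a log2 ratio of 0.77, and its other probe set gave 0.44. Gstt1, a theta enzyme that acts on small halogenated compounds, had 0.58 (2057 and 1377). Gstt2 had the largest value of the group, 1708 against 533, 3.20-fold higher, and passed the filter through the labelled double knockout array alone. Gsta4, which clears aldehydes from lipid peroxidation, had 0.04 (2653 and 2589). The values of the theta class did not run 1 way across designs, since Gstt4 on MOE430B read 279 in the labelled double knockout and 1107 in the labelled wild type array, 3.96-fold lower. The floor of MOE430B is 278.1, so the labelled double knockout signal lies at it.

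**Figure D3:**
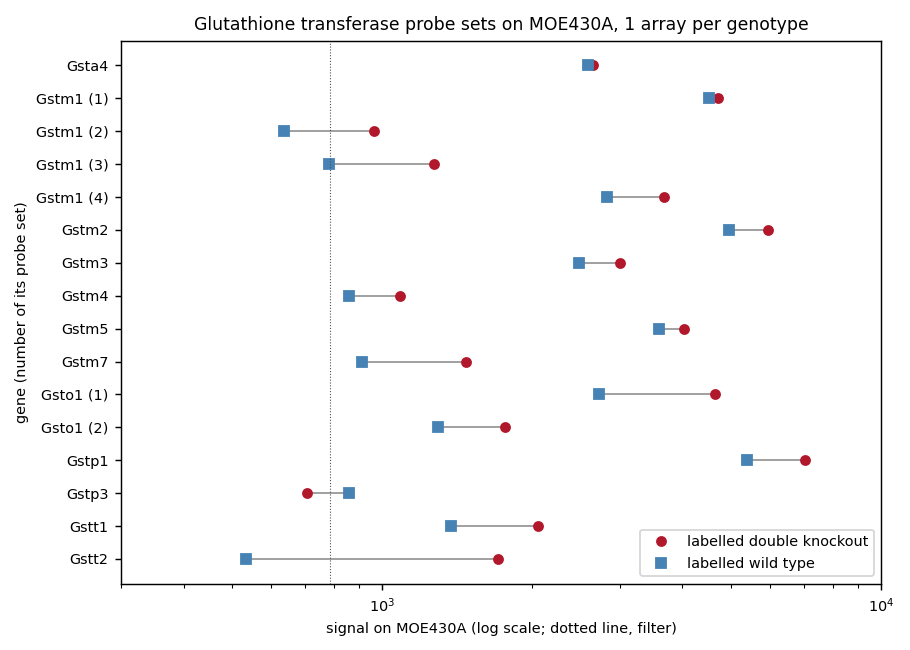
Signals of the 16 glutathione transferase probe sets that reached the filter on MOE430A, in the arrays labelled double knockout (circles) and wild type (squares), on a log scale with the filter dotted. In 15 of 16 rows the circle lies to the right of the square, Gstp3 being the exception, and the gap is widest for Gstt2.

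Of 6 flavin monooxygenase and epoxide hydrolase genes on MOE430A, 4 were measured. All 4 read higher in the labelled double knockout array, against 51.3% of all genes. Fmo2, the flavin monooxygenase best known from mammalian lung, read 5152 and 3916 by its brighter probe set, a log2 ratio of 0.40, and 0.12 by the other. On MOE430B its 2 probe sets gave 0.52 (34936 and 24362) and 0.35 (22737 and 17836), so all 4 measured probe sets of Fmo2 on both designs lay above 0. It was the only member measured on both designs. Fmo1, the flavin monooxygenase of liver and kidney and of embryonic tissue, had 0.46 (3514 and 2561). Fmo5 on MOE430B had -0.22 (993 and 1154), which is within the spread between probe sets there. Fmo4 on MOE430A did not reach the filter, and its signals went the other way (326 and 646). Ephx2, the soluble epoxide hydrolase that opens epoxides of fatty acids, read 1735 in the labelled double knockout array and 792 in the labelled wild type array, 2.19-fold higher by a single probe set. Ephx1, the microsomal enzyme that opens epoxides of drugs and toxicants, had 0.52 (1590 and 1109), and Ephx3 on MOE430B had 0.26 (2166 and 1807).

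The P450 families 1 to 4 were mostly unmeasured, and those measured on MOE430A were mostly close to equal. Cyp2s1, a P450 of epithelia outside the liver, read 2817 and 2414, a log2 ratio of 0.22. Cyp4b1, the lung P450 that activates furan toxicants, had 0.18 (2093 and 1851). Neither ratio exceeds the SD of 1 ratio. Cyp2e1, which oxidises ethanol and small solvents, read 1704 in the labelled double knockout array and 861 in the labelled wild type array, a log2 ratio of 0.98, and Cyp2c68 had 0.96. These 2 were the measured members on this design closest to 2-fold without reaching it. Cyp2d13 had 0.14 (1465 and 1327) and Cyp2d22 0.31. The 5 measured genes of family 2 on this design had a median of 0.31. Cyp2c68 and Cyp2d22 passed the filter through the labelled double knockout array alone, so their direction was fixed by it, and the other 3 passed on both arrays. In family 4, Cyp4f16 had 0.16 (880 and 790) and Cyp4v3, a fatty acid hydroxylase, -0.15 (762 and 846), and the median of 3 genes was 0.16.

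Cyp1b1 was the only measured member at least 1.5-fold lower on MOE430A. This P450, expressed outside the liver and induced through Ahr, oxidises polycyclic hydrocarbons and oestradiol. It read 674 in the labelled double knockout array and 1041 in the labelled wild type array, 1.54-fold lower. It passed the filter through the labelled wild type array alone. Its other probe sets were below the filter. They read 85.8 and 302, and 344 and 286, and so differed in direction, with the 85.8 below the floor.

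On MOE430B the members showed no common direction. Of 26 genes 16 were measured, 9 with a ratio above 1 and 7 below 1, against 54.0% below 1 of all 6728 genes measured there, and the median log2 ratio was 0.09, against -0.04 for all genes. At least 2-fold higher were 2 genes, against 7.07% of all genes, and 2 were at least 2-fold lower, against 6.26%. At 1.5-fold 4 genes were higher and 2 lower, against 14.3% and 14.0% of all genes. The log2 ratio exceeded the SD between probe sets in 5 of the 16 genes, against 21.9% of all genes. With the filter on the mean of both signals 7 of 12 genes had a ratio above 1, against 45.3% of all genes. With no filter the share was 54.5%, against 47.1%. Cyp2j11, of the P450 subfamily that includes epoxygenases of fatty acids, read 1488 in the labelled double knockout array and 368 in the labelled wild type array, 4.05-fold higher. Cyp4x1 read 998 and 236 in the same order, at least 3.59-fold higher, since the second value is below the floor. Each of the 4 genes past 2-fold there, Gstt4 and Sult4a1 included, was read by a single measured probe set and passed the filter on 1 array alone, and none of them was measured when the filter was set on the mean of both signals. Cyp2j6 had 0.10 (1140 and 1066). Cyp2u1, a fatty acid hydroxylase, had 0.09 (1070 and 1004) by one probe set and 0.89 (915 and 494) by the other. Cyp4f39, which hydroxylates very long fatty acids of skin lipids, had -0.48 (1017 and 1417). Cyp4a31 had -0.15 (1949 and 2162), while its MOE430A probe set was below the floor on both arrays.

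Among the other P450 families Cyp26b1, which clears retinoic acid in the embryo, read 4133 in the labelled double knockout array and 2380 in the labelled wild type array on MOE430B, a log2 ratio of 0.80. Cyp20a1, a P450 with no settled substrate, had -0.29 (3277 and 4012), and its other measured probe set 0.14. Cyp11a1, which starts steroid synthesis, had 0.61 (1429 and 938) by one probe set and -0.14 (805 and 885) by the other, and 24.9 and 60.6 on MOE430A. The probe sets of Cyp11a1 and of Cyp20a1 thus differ in direction. Cyp11a1 entered the counts for MOE430B with its brighter probe set, which carries the suffix _x_at, and without probe sets ending in _x_at or _s_at 8 genes there had a ratio above 1 and 8 below 1. On MOE430A 1 of 10 such genes was measured, Cyp21a1 of adrenal steroid synthesis, at -0.02 (856 and 868).

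Of the conjugating sulfotransferases and glucuronosyltransferases, 2 of 17 genes on MOE430A and 3 of 5 on MOE430B were measured. Sult1a1, which sulfonates phenols, read 2105 in the labelled double knockout array and 2645 in the labelled wild type array, a log2 ratio of -0.33. Sult5a1 had 0.11 (1556 and 1446). Sult4a1, known from brain and without a settled substrate, was 2.45-fold lower on MOE430B (406 and 997), and its MOE430A probe set was below the floor on both arrays (73.3 and 117). Of the Ugt2 genes, Ugt2b36 had -0.46 (1014 and 1395) and Ugt2b35 0.09 (885 and 832) on MOE430B. No probe set pairs with a single Ugt1 gene. These 2 families gave 1 gene higher and 1 lower on MOE430A, and 1 higher and 2 lower on MOE430B. Of the 3 genes measured on MOE430B, 2 passed the filter on 1 array alone. The 1 glutathione transferase gene measured on MOE430B, Gstt4, was lower too. The difference between families was not tested.

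Genes that serve these enzymes were read from 4 lists. Of the regulators 6 of 11 on MOE430A were measured, 5 with a ratio above 1, against 51.3% of all genes. Their median was 0.25, against 0.01. Ahr, the receptor of dioxins and polycyclic hydrocarbons, had 0.34 (5176 and 4078), but -0.28 by its other probe set, and Tiparp, an Ahr target, had 0.34 (3095 and 2449). Nfe2l2 had 0.22 (6987 and 5994) and Keap1 0.15 (2629 and 2368). None of the 6 was 1.5-fold different. The receptors Nr1i2 and Nr1i3, which induce Cyp2b and Cyp3a genes in liver, were below the filter. Arnt had 0.06 (3021 and 2889) on MOE430B, where 2 regulators were measured with a median of 0.10.

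The supply of electrons and cofactors had a median of 0.04 over 11 genes on MOE430A, 8 with a ratio above 1 and 3 below it. The largest difference was in Papss1, which makes the sulfate donor of the sulfotransferases. It read 1964 in the labelled double knockout array and 5325 in the labelled wild type array, 2.71-fold lower by a single probe set. Papss2, the second such enzyme, was below the filter. Gclm had 0.44 (1675 and 1233) and Cyb5a, cytochrome b5, which passes electrons to P450s, 0.42 (6587 and 4927). Ugp2 had 0.23 (9622 and 8180) and Ugdh, which makes the donor of glucuronic acid, -0.13 (3628 and 3963). On MOE430B the 2 measured genes had a median of 0.10, with Gss, the glutathione synthetase, at 0.02 (3457 and 3403).

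Among other drug and toxicant enzymes 16 of 20 measured genes on MOE430A had a ratio above 1, against 51.3% of all genes. Their median was 0.33, against 0.01. Adh1, an alcohol dehydrogenase, had 0.71 (35626 and 21750) and Pon1, a lactonase and esterase, 0.68 (2727 and 1700). Aldh1a1, which oxidises retinal, had -0.52 (2640 and 3789), and Adh5, which clears formaldehyde, -0.22 (4894 and 5711). Named after their values were seen, Mgst2, a membrane-bound glutathione transferase outside the prefixes used, was 3.20-fold higher (1285 and 402). Nqo1, a quinone reductase, was 2.04-fold lower (592 and 1207). On MOE430B 5 of 7 such genes had a ratio above 1, with a median of 0.17, while 54.0% of all genes there had a ratio below 1. Tpmt, which methylates thiopurine drugs, had 0.61 (3194 and 2094) there, and Aldh2, the mitochondrial aldehyde dehydrogenase, 0.27 (2644 and 2189). The designs differed in sign for Nqo2, at 0.27 on MOE430A and -1.04 (1681 and 3451) on MOE430B, and for Maoa, at 0.46 and -0.21 (2201 and 2554). Transporters had a median of 0.17 over 7 genes on MOE430A and -0.01 over 7 on MOE430B. Slco2a1, a prostaglandin carrier, had 0.19 (4193 and 3665) on MOE430A, the peptide carrier Slc15a2 0.17 (2580 and 2299) and the efflux pump Abcc5 -0.08 (3724 and 3925). On MOE430B the efflux pump Abcb1b had 0.07 (2298 and 2184), Slc15a2 -0.01 (2654 and 2664) and the anion carrier Slco2b1 -0.19 (4468 and 5115).

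**Figure D4:**
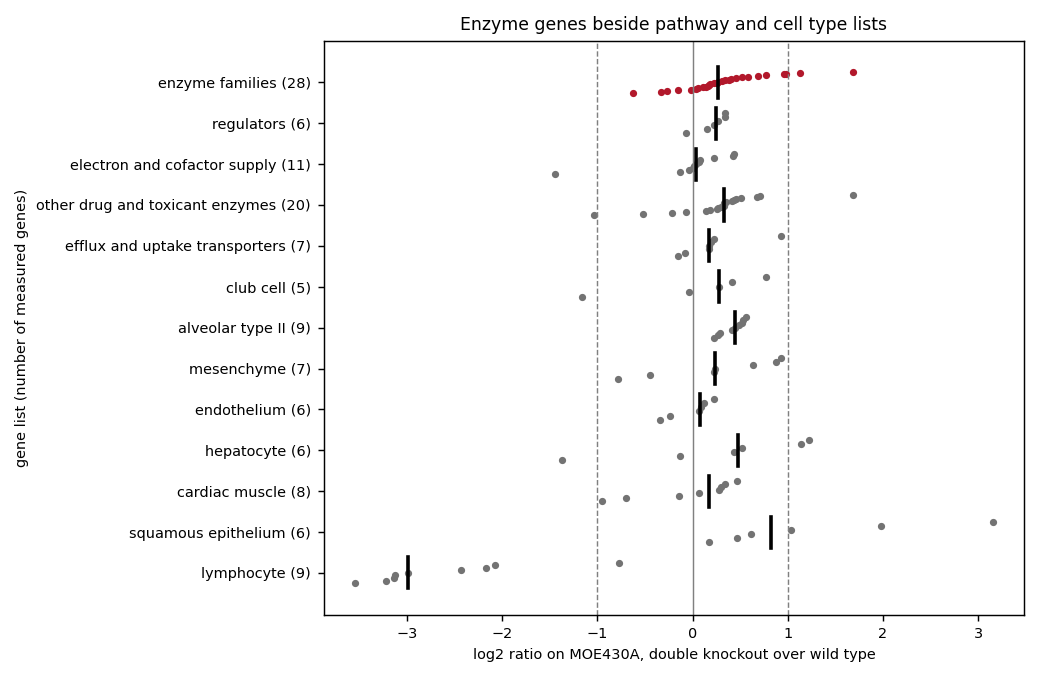
Log2 ratios on MOE430A of the 28 measured enzyme genes (red) and of the measured genes of pathway and cell type lists (grey), with the median of each as a black bar and 2-fold as dashed lines. The enzyme median of 0.27 lies between those of the regulators (0.25) and of the other drug and toxicant enzymes (0.33), type II cell genes lie at 0.45, and lymphocyte genes at -2.99.

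Markers of several cell types differed between the same arrays. Of all genes measured on MOE430A, 51.3% had a ratio above 1, with a median of 0.01. All 9 measured alveolar type II genes on MOE430A had a ratio above 1, with a median of 0.45 and a summed signal of 250245 in the labelled double knockout and 180941 in the labelled wild type array. Club cell genes had a median of 0.28 over 5 of 7 genes (130555 and 114020), with Scgb1a1 at 0.77 and Scgb3a1 at -1.16, and Bpifa1 and Chad below the filter. Lymphocyte genes were lower in all 9 measured cases on MOE430A (median -2.99), and their summed signals were 3154 and 24057. Cd8a, the 1 gene of this list on MOE430B, had -0.30 (4278 and 5257) there by its brightest probe set. Its 3 measured probe sets on that design ranged from -2.70 to -0.30. Genes of squamous epithelium had a median of 0.82 over 6 genes (8837 and 3505), all above 0, and Krt4, a keratin of the oesophagus, was at least 8.90-fold higher. On MOE430B Krt4 was 2.94-fold higher (8963 and 3053), and Krt13, at least 3.93-fold higher on MOE430A, had -0.57 (580 and 864). Hepatocyte genes were dim, with 6 of 11 measured and sums of 8056 and 5934. Of these 6, Alb had 0.52 (3621 and 2530), Afp 1.22, Ttr 1.14 and Apoa1 0.43, while Tdo2 had -1.37 (330 and 854) and Apoa2 -0.13. Ttr had -0.72 (883 and 1451) on MOE430B, and Fgb was below the floor on both MOE430A arrays. Mesenchyme and endothelium had medians of 0.24 and 0.08. The part of these cell types in the enzyme ratios was not tested.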

How the data were processed

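Per the labels' protocols, total RNA (6 µg) was turned into biotinylated cRNA for Affymetrix arrays. The deposited table of each design holds linear intensities, 1 per probe set and array, which the authors made with MAS5 per the submitters' processing notes. The sources used here give neither a MAS5 version nor detection calls. The 2% trimmed mean of every array was 1500, so each array was scaled on its own, which assumes equal total signal, and dim signals are noisy.

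The 64 controls of each design were dropped. Signals of the labelled double knockout arrays were divided by 1.004 (MOE430A) or 1.008 (MOE430B) to set the median ratio to 1. Probe sets passed as stated in the report, signals below the 25th percentile (283.8 and 278.1) were set to that floor, and a ratio with 1 signal below it is a lower bound. On each design the brightest passing probe set, by mean log2 signal, stood for its gene. Pairs of signals are in the order labelled double knockout, labelled wild type. The platform annotation named 20380 and 14661 probe sets with 1 gene, 691 and 245 with several and 1555 and 7605 with none. Entrez identifiers of 20351 and 14486 matched RefSeq, and no symbol changed.

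The members and lists were chosen with earlier results of these data known. Signals are given for the 3 brightest measured members of each family and design, members past 2-fold, those whose probe sets differ in direction, and the 2 highest and 2 lowest bright genes of each pathway list; other pairs were added after their values were seen. The steps were tested on simulated arrays, with large changes planted in 200 bright genes of each design that have a single probe set. That test does not cover dim genes or small ratios. Python 3.11.15, numpy 2.4.6 and pandas 2.3.3 were used. Alternatives were other normalizations, floors, filters and probe set rules, and P450 families 1 to 4 alone. A filter on the mean signal, the MOE430A filter carried to MOE430B and a narrower set of probe set suffixes were added after the data were seen.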

Additional observations from a re-analysis of the deposited data

How the results depend on the processing

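On MOE430A the median log2 ratio of the members stayed between 0.24 and 0.33 under every alternative but one. With no filter it was 0.00 over 97 genes, of which 35 were below the floor on both arrays and so had a log2 ratio of 0, and the median of P450 family 2 was 0.00 too. The 2 genes at least 2-fold higher there became 4 with no filter, 1 when probe sets ending in _x_at, _s_at or _a_at were dropped, and 0 when the filter was raised to the 75th percentile. They were 3 under quantile normalization and after removal of a loess curve. The gene lost was Ephx2, whose only probe set ends in _a_at, and with only _x_at and _s_at dropped, an alternative added after the data were seen, the count was 2. No alternative gave a member at least 2-fold lower on MOE430A. On MOE430B both counts of 2 genes past 2-fold fell to 0 higher and 0 lower with the floor at the median, with the stricter filter, with the filter on the mean of both signals, and with the filter and floor of MOE430A carried over through the shared probe sets, whose signals were a median 3.95-fold higher on MOE430B. The last left 3 members, with a median of 0.52. There the other P450 families had a median of 0.00 with no filter, 0.24 with the median over probe sets and -0.14 after dropping suffixed probe sets, with or without _a_at, against 0.61. Their middle gene is Cyp11a1, whose probe sets differ in sign. P450 family 2 on MOE430B had 0.49 with the median over probe sets, against 0.10. A median or single ratio was counted as moved past 0.24, the SD of 1 ratio, and a count past 1.5 times, which 2 to 3 does not exceed. The remaining 113 counts and medians stayed within these limits, as did 435 values of single genes, while 13 did not. The limit is wide for medians this small, since P450 family 4 on MOE430A stayed within it at 0.00 with no filter, against 0.16. The 13 values were of Cyp11a1, Gstm1, Cyp2u1, Gstt2, Cyp2c68 and the 4 genes past 2-fold on MOE430B. With the floor at the median Gstt2 had 1.12 and Cyp2c68 0.36. Dim signals limit the rest, since 72 of the 115 genes were not measured. Family medians were not recomputed where fewer than 3 genes were measured. No paired analysis was possible because each genotype has 1 array per design.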

Other observations

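Probe sets of the enzyme families that pair with several genes were outside the members. The 3 probe sets of the Ugt1a cluster, each annotated to 8 Ugt1a genes that share their last exons, reached the filter on MOE430A. They read 3884 and 2875, 3052 and 2768, and 776 and 958 in the arrays labelled double knockout and wild type, with log2 ratios of 0.43, 0.14 and -0.31. A probe set for Cyp4f16 and Cyp4f37 read 875 and 700, a log2 ratio of 0.32. The probe set shared by Gsta1, Gsta2 and Gm3776 read 513 and 285, below the filter, and that for Cyp2a4 and Cyp2a5 read 197 and 43.4, below the floor.

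Some enzyme genes below the filter had unequal signals in either direction, and are named here after their values were seen. Cyp2c55 read 598 in the labelled double knockout and 136 in the labelled wild type array. Cyp2b10, a P450 of lung and liver, read 612 and 196 by one probe set, but 481 and 458, and 352 and 483, by the other probe sets. Gsto2 on MOE430B read 822 and 448. Lower in the labelled double knockout arrays were Fmo4 (326 and 646), Cyp2c54 (455 and 753) and Cyp26a1 (143 and 441) on MOE430A, and Sult6b1 (18.4 and 527) on MOE430B.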
